A study of Mus musculus with 36 samples.

Results

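Potassium channel genes were examined in the mouse hippocampus as the gene symbols of the RNA count files that start with Kcn, go on with a family letter or letters and end in a number. The sodium-activated channel genes Kcnt1 and Kcnt2 were left out. This rule gave 90 genes of the 24060 listed, and it used no measured value. RNA was sequenced from C57BL/6J mice in 12 libraries, with 3 libraries in each of 4 groups: young naive and young conditioned mice of 2.5 months, and old naive and old conditioned mice of 15.5 months. Conditioned mice received 3 shocks of 0.5 mA, each lasting 2 s, within a 5 min session of fear conditioning, and brains were frozen 30 min after training. Chromatin immunoprecipitation of the histone variant H2A.Z gave 12 further libraries of the same 4 groups, of which the authors deposited 1 table of consensus peaks. The labels name no transgene or drug in any group and do not say whether the libraries of a group came from separate animals, so p-values measure only the spread between these samples.

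Potassium channels let potassium leave the cell, which sets the resting potential, ends the action potential and limits repetitive firing. Voltage-gated subunits assemble into pores that open on depolarization, auxiliary subunits alter their gating and their transport to the membrane, and calcium-activated channels follow calcium entry. Inward rectifiers and two-pore domain channels carry resting and G protein-gated currents in neurons and take up or buffer potassium in glia and epithelia. H2A.Z takes the place of the canonical histone H2A in nucleosomes around transcription start sites and has been linked to memory formation in the hippocampus.

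RNA libraries held 9410843 to 13350561 counts, and 17017 to 17436 genes had a count in a library. Potassium channel genes took between 0.558% and 0.596% of the counts of a library. The marker genes of hippocampal pyramidal neurons summed to 1854 to 2384 CPM (counts relative to library size, scaled by TMM factors) and those of dentate granule cells to 388 to 539 CPM, and no gene of either list was at 0 in any library. Pairs of libraries of 1 group differed by a chi-square of 4.50 to 16.8 per gene, so no library repeated another. Young naive 81 and old conditioned 61 stood farthest from the other libraries of their groups. Choroid plexus markers summed to between 64.4 and 3192 CPM, and oligodendrocyte markers to between 2167 and 3546 CPM. In bulk tissue, fewer cells of a type and less RNA per cell cannot be told apart.

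Most potassium channel genes were measured at a depth that allowed a test. Of the 90 genes, 73 (81.1%) passed the filter on low counts, against 14405 of all 24060 genes (59.9%), and 17 did not. Tested genes numbered 15 of 17 voltage-gated pore subunits, 9 of 10 electrically silent subunits, 4 of 5 Kv7 subunits and 8 of 8 EAG and ERG subunits. They numbered 8 of 11 auxiliary subunits, 8 of 10 calcium-activated and Slo genes, 12 of 15 inward rectifiers and 9 of 14 two-pore domain genes. Kcnk16 and Kcnmb3 had 0 counts in each of the 12 libraries, which allows a level of up to 0.227 to 0.316 CPM, the value of 3 counts, depending on the library. The CPM values below are read counts that are not divided by transcript length, so they are compared between libraries and not between genes.

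Levels varied little across the 12 libraries for most genes. The coefficient of variation had a median of 11.5% over the 73 tested potassium channel genes and of 10.4% over all tested genes, and it was under 10% for 31 of the 73. Kcna2, an axonal Kv1 pore subunit, ranged only from 323 to 375 CPM, and its Kv1 partner Kcna1 from 343 to 465 CPM. Kcnc1 (209 to 250 CPM) and Kcnc2 (163 to 201 CPM) encode the Kv3 subunits of fast-spiking neurons. Kcnd2 (162 to 200 CPM) and Kcnd3 (132 to 159 CPM) encode the A-type channels of dendrites, and Kcna4 (65.8 to 119 CPM) that of axons. Reads of Kcnd3, Kcnmb4 and Kcnq1 cannot be told apart from those of the antisense genes Kcnd3os, Kcnmb4os1 and Kcnq1ot1 if counting ignored the strand, a setting not given in the sources used here.

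The coefficient of variation had a median of 7.50% over the voltage-gated pore subunits and of 6.51% over the Kv7 subunits. It was 8.98% over the auxiliary subunits, 13.2% over the silent subunits and 13.8% over the EAG and ERG subunits. The silent subunits Kcnf1 (55.0 to 91.9 CPM), Kcns2 (47.0 to 61.4 CPM) and Kcnv1 (44.3 to 59.6 CPM) form no channel alone and join other Kv subunits. The M-current, which dampens excitability until acetylcholine shuts it off, is carried by Kv7 channels, whose subunits include Kcnq3 (126 to 147 CPM) and Kcnq5 (106 to 142 CPM). In the EAG and ERG family, Kcnh1 lay between 70.0 and 87.8 CPM, Kcnh3 between 66.9 and 102 CPM and Kcnh7 between 53.2 and 66.5 CPM. The beta subunits Kcnab1 (148 to 174 CPM) and Kcnab2 (612 to 770 CPM) bind Kv1 channels in the cytoplasm. The calcium-binding KChIP subunits of A-type channels include Kcnip2, the steadiest gene of all 73 with a coefficient of variation of 3.02%, and Kcnip3 (65.6 to 86.7 CPM).

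Calcium-activated channels shape the afterhyperpolarization. Kcnma1, the pore of the big-conductance channel, ranged from 247 to 294 CPM and its neuronal beta subunit Kcnmb4 from 32.2 to 46.8 CPM, while the small-conductance subunit Kcnn2 ranged from 47.2 to 61.9 CPM. Among inward rectifiers, the G protein-gated subunits Kcnj3 (85.7 to 109 CPM) and Kcnj6 (120 to 159 CPM) and the astrocyte subunits Kcnj10 (153 to 202 CPM) and Kcnj16 (20.5 to 26.6 CPM) were measured at high depth. Kcnj8, the pore of vascular ATP-sensitive channels, was low, at 0.806 to 2.23 CPM. The two-pore leak channels Kcnk1 (55.2 to 77.6 CPM), Kcnk2 (43.9 ± 2.81 CPM, SD, n = 12) and Kcnk9 (14.6 to 18.9 CPM) also kept within narrow ranges. Only Kcne2 and Kcnj13, described below, had a coefficient of variation over 50%. These 2 genes are 2.74% of the 73, and 2.05% of all tested genes were as variable.

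**Figure D1:**
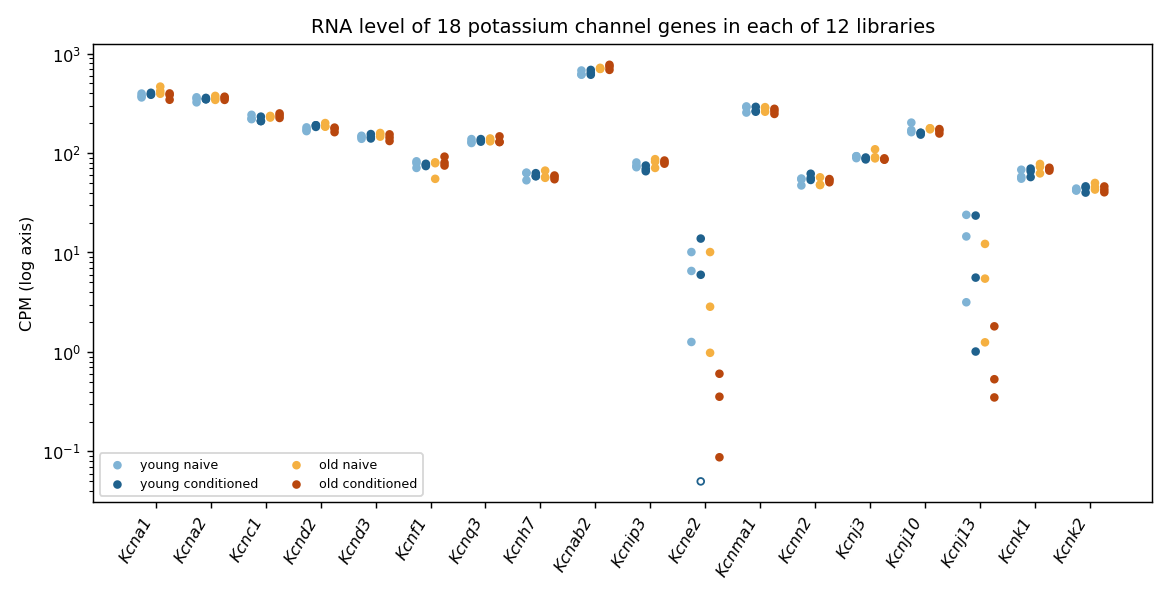
RNA level in CPM (log axis) of 18 potassium channel genes, with 1 point for each of the 12 libraries, coloured by group (3 libraries each); an open point at the bottom marks a library with 0 counts. Points of 16 genes sit close together, while Kcne2 ranges from 0 to 13.8 CPM and Kcnj13 from 0.349 to 23.9 CPM.

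Training was compared with the naive state within young mice. No potassium channel gene passed an adjusted p of 0.05 in edgeR (0 of 73, against 0.0278% of all genes) or in DESeq2 (0 of 73). At an unadjusted p under 0.05 there were 2 genes in edgeR, Kcnj10 lower and Kcnk6 higher in conditioned mice, against 6.63% of all genes. The median log2 change over the 73 genes was -0.029, and over all tested genes -0.006. The count at an unadjusted p was 5 without young naive 79 or without young naive 83, and 1 without young conditioned 77, old naive 71, old conditioned 63 or old conditioned 65.

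Kcnj10, the Kir subunit through which astrocytes buffer potassium, lay at 162, 202 and 170 CPM in the young naive libraries and at 159, 160 and 153 CPM in the young conditioned ones. The naive libraries were all above the conditioned ones, with young naive 81 the highest. Such a lack of overlap held for 7 of the 73 potassium channel genes (9.59%) and for 12.8% of all genes. The log2 change was -0.18 (SE 0.0702, adjusted p = 0.73), and -0.08 without young naive 81. Kcnk6, a two-pore domain channel gene, had 2.62 ± 1.16 CPM (SD, n = 3) in young naive and 3.94 ± 0.431 CPM (SD, n = 3) in young conditioned libraries, and the groups overlapped. Its log2 change was 0.57 (SE 0.264, adjusted p = 0.745), and 1.01 without young naive 83. Kcnab1 (0.12), Kcnd2 (0.11) and Kcnj8 (-0.68) had the next smallest p-values, with adjusted p of 0.746, 0.761 and 0.751. For Kcnd2 the 95% interval of the log2 change ran from -0.01 to 0.24.

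By family, log2 changes in young mice were below 0 for 11 of 12 tested inward rectifiers and 6 of 8 EAG and ERG genes, and above 0 for 7 of 8 auxiliary subunits and 6 of 9 silent subunits. Medians were -0.132, -0.148, 0.078 and 0.030 in that order. Of all tested genes, 48.4% had a change above 0. Only Kcnj10 of these 4 families was under an unadjusted p of 0.05.

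Within old mice, training again gave 0 of 73 genes past the adjusted threshold in edgeR, against 0.0139% of all genes, and 0 in DESeq2. Of the 73 genes, 11 had an unadjusted p under 0.05, 5 higher and 6 lower in conditioned mice. This is 15.1% of the 73, against 7.16% of all genes. The count fell to 3 without old naive 71 and to 3 without old conditioned 61, and it was 13 without old naive 67. The median log2 change was -0.003 for potassium channel genes and -0.002 for all genes.

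Kcnj11, the pore of neuronal ATP-sensitive channels that close when ATP is plentiful, lay at 36.0, 31.8 and 37.7 CPM in old naive and 41.1, 44.2 and 41.8 CPM in old conditioned libraries. The conditioned libraries were all higher, with a log2 change of 0.27 (SE 0.0931, adjusted p = 0.695). Kcnj9, a G protein-gated subunit, had values of 69.4, 82.8 and 61.9 CPM against 84.7, 84.9 and 91.3 CPM. These groups did not overlap either, and the log2 change was 0.28 (SE 0.109, adjusted p = 0.695). Groups without overlap were found here, too, for 7 potassium channel genes, against 12.8% of all genes. Kcna1 lay at 420, 394 and 465 CPM in old naive and at 343, 383 and 397 CPM in old conditioned libraries. The groups overlapped by 1 library, with a log2 change of -0.19 (SE 0.0699, adjusted p = 0.695), or -0.12 without old naive 71. Kcnh6, an ERG channel gene, was low in both groups, at 0.554, 1.19 and 0.624 CPM against 2.13, 1.40 and 1.12 CPM (log2 change 0.97, SE 0.356, adjusted p = 0.695). Kcne2, with a log2 change of -3.67, is described with the choroid plexus markers below.

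Averaged over both ages, training gave 0 of 73 genes past the adjusted threshold in edgeR, against 0.0764% of all genes, and 0 in DESeq2. An unadjusted p under 0.05 was found for 7 genes (2 higher, 5 lower), against 6.99% of all genes. Without young naive 81 this count was 3, without old conditioned 61 it was 3, and without old naive 67 it was 10. The 5 genes with the smallest p were Kcnj10 (-0.13, SE 0.0496), Kcnc2 (0.11, SE 0.0431), Kcnj13 (-1.63, SE 0.687), Kcnj2 (-0.38, SE 0.164) and Kcnh4 (-0.45, SE 0.199), all at an adjusted p of 0.711. The change of Kcnj10 was -0.08 without young naive 81, and that of Kcnj2 -0.24 without old naive 71. The choroid plexus markers described below moved with Kcnj13, whose change was -0.22 with their level as a covariate. Kcnj2, the classical inward rectifier of the resting membrane, was highest in old naive libraries, at 22.6, 35.3 and 47.1 CPM, and lay at 18.0, 28.5 and 24.1 CPM in old conditioned ones. Its young libraries lay between 15.1 and 25.9 CPM, so the groups overlapped.

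**Figure D2:**
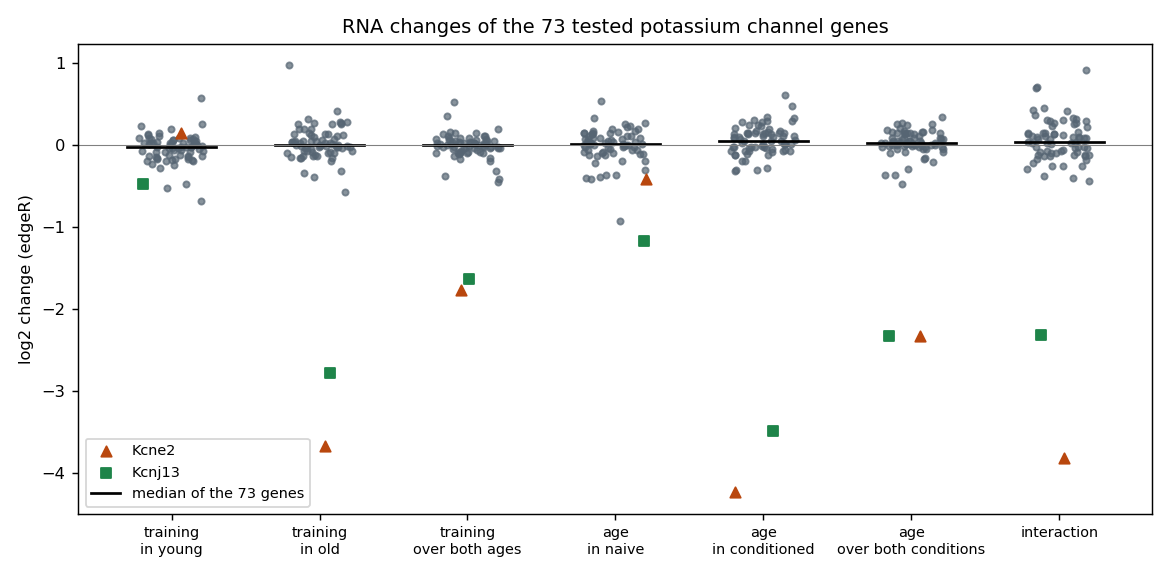
Log2 change (edgeR) of the 73 tested potassium channel genes in the 7 RNA comparisons, with 1 point per gene and a black line at the median. Medians lie between -0.029 and 0.055, and points below -1 belong to Kcne2 (triangles) and Kcnj13 (squares).

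Age was compared next, first in naive mice. No potassium channel gene passed the adjusted threshold in edgeR (0 of 73, against 0.0555% of all genes) or in DESeq2 (0). There were 9 genes at an unadjusted p under 0.05, 6 higher and 3 lower in old mice, against 10.3% of all genes. The count was 2 without old naive 71 and 12 without old naive 67. Kcnab2, the most heavily sequenced Kv beta subunit, lay at 615, 675 and 614 CPM in young naive and at 700, 704 and 718 CPM in old naive libraries, so old libraries were all higher. No overlap was found for 5 of the 73 genes (6.85%) and for 13.4% of all genes. The log2 change was 0.15 (SE 0.0602, adjusted p = 0.402). Kcnh6 (-0.93, adjusted p = 0.393), Kcnn3 (-0.30, adjusted p = 0.404), Kcna1 (0.17, adjusted p = 0.406) and Kcnk10 (-0.36, adjusted p = 0.422) were the other 4 of the 5 genes with the smallest p-values. Kcna1 had 0.10 without old naive 71, and Kcnk10 had -0.23 without old naive 67.

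In conditioned mice, age likewise gave 0 of 73 genes past the adjusted threshold in edgeR, against 0.0347% of all genes, and 0 in DESeq2. Of the 73 genes, 11 had an unadjusted p under 0.05 (8 higher and 3 lower in old mice), against 13.4% of all genes. Without old conditioned 61 this count was 5. The median log2 change was 0.055 for potassium channel genes and -0.007 for all genes. Kcnc4, an inactivating Kv3 subunit, lay at 57.7, 55.5 and 60.2 CPM in young conditioned and 78.9, 60.7 and 78.3 CPM in old conditioned libraries. Old libraries were all higher, though old conditioned 63 was within 1 CPM of the highest young library, and the log2 change was 0.33 (SE 0.100, adjusted p = 0.236). Kcnj11 lay at 38.9, 30.8 and 33.8 CPM in young and 41.1, 44.2 and 41.8 CPM in old libraries (log2 change 0.29, SE 0.0932, adjusted p = 0.239). Kcnh3, an ELK channel gene of forebrain neurons, lay at 75.8, 66.9 and 69.1 CPM against 102, 76.5 and 85.0 CPM (log2 change 0.31, SE 0.108, adjusted p = 0.271). For both genes the old libraries were all higher, but groups without overlap were common in this comparison, at 13 of the 73 potassium channel genes (17.8%) and 22.9% of all genes. Without old conditioned 61 the change of Kcnh3 was 0.19.

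Averaged over both conditions, age gave 0 of 73 genes past the adjusted threshold in edgeR, against 0.375% of all genes. DESeq2 called 1 of the 73, Kcnab2 (adjusted p = 0.0211), and 1.64% of all genes. At an unadjusted p under 0.05 in edgeR there were 11 genes, 8 higher and 3 lower in old mice. This is 15.1% of the 73, against 16.6% of all genes. The count was 7 without young conditioned 77 or without old naive 71. Log2 changes were above 0 for 47 of 73 genes (64.4%), including 13 of 15 voltage-gated pore subunits, against 48.9% of all genes. The medians were 0.023 and -0.003. The summed level of pyramidal neuron markers was also higher in old than in young libraries of the same condition. It was 1854 to 1926 CPM in young naive and 1908 to 2099 CPM in young conditioned libraries. In old mice it was 2032 to 2107 CPM before and 2151 to 2384 CPM after training. The mean log2 level of these markers overlapped between young conditioned (7.23 to 7.32) and old conditioned libraries (7.25 to 7.49). Microglial markers were higher in old libraries too, at 206 to 245 CPM in young naive and 264 to 278 CPM in old naive ones. In conditioned mice they summed to 215 to 225 CPM in young and 252 to 280 CPM in old libraries. Oligodendrocyte markers overlapped between ages. The part of cell types in the changes of the potassium channel genes was not tested.

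Kcnab2 had the smallest p in this comparison. Its 6 old libraries ranged from 685 to 770 CPM and its 6 young ones from 612 to 684 CPM. The groups did not overlap, which held for 1 of the 73 potassium channel genes and for 1.32% of all genes. The log2 change was 0.16 (SE 0.0426, 95% interval 0.07 to 0.25, adjusted p = 0.0963). Kcnn3, a small-conductance calcium-activated subunit, ranged from 28.5 to 36.1 CPM in young and from 22.5 to 29.6 CPM in old mice, with overlap (log2 change -0.29, SE 0.0847, adjusted p = 0.131). Kcnj4, a strong inward rectifier of forebrain neurons, lay at 47.8 to 67.4 CPM in young and 55.4 to 69.5 CPM in old mice. Young naive 81 was the only young library above 50.2 CPM, and the log2 change was 0.24 (SE 0.0784, adjusted p = 0.168). Without that library, 3 genes passed the adjusted threshold in edgeR, namely Kcnab2 (0.18, adjusted p = 0.031), Kcnj4 (0.32, adjusted p = 0.0223) and Kcnn3 (-0.33, adjusted p = 0.043). The share of all genes past the threshold was then 2.69%. With old conditioned 61 left out as well, 0 potassium channel genes passed, against 90 of all 14515 tested genes. Without a filter on low counts 1 gene passed, Kcnj13, against 0.984% of all genes.

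The interaction asks whether the effect of training differed between old and young mice. No potassium channel gene passed the adjusted threshold in edgeR (0 of 73, against 0% of all genes) or in DESeq2 (0). At an unadjusted p under 0.05 there were 7 genes, against 7.2% of all genes, and 3 without old conditioned 61. Kcnc4 had a log2 difference of 0.43 (SE 0.142) and Kcnj12, a Kir2 inward rectifier, one of 0.69 (SE 0.266). Kcnd2 had a log2 difference of -0.25 (SE 0.0860) and Kcna1 one of -0.25 (SE 0.0989). Kcne2, low in all old conditioned libraries, had one of -3.81 (SE 1.59), and of -1.76 with the level of the choroid plexus markers as a covariate. All 5 had an adjusted p of 0.68. Kcnd2 lay at 181, 166 and 172 CPM in young naive, 190, 183 and 190 CPM in young conditioned, 184, 185 and 200 CPM in old naive and 162, 180 and 175 CPM in old conditioned libraries. Conditioned libraries were thus all above naive ones at 2.5 months and all below them at 15.5 months. Groups without overlap were found for 12.8% of all genes at each age, and the share with opposite directions was not counted.

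Kcne2 and Kcnj13 were the potassium channel genes that differed most between libraries. Kcne2 encodes a small single-pass accessory subunit and Kcnj13 a Kir channel, and both are known from the apical membrane of the choroid plexus epithelium. Kcne2 lay at 1.26, 10.1 and 6.52 CPM in young naive, at 5.97, 13.8 and 0 CPM in young conditioned, at 2.85, 10.1 and 0.981 CPM in old naive and at 0.355, 0.0874 and 0.604 CPM in old conditioned libraries. The library without a count, young conditioned 77, allows up to 0.302 CPM. Kcnj13 lay at 3.16, 23.9 and 14.5 CPM, at 5.59, 23.5 and 1.01 CPM, at 5.46, 12.2 and 1.25 CPM and at 0.532, 0.349 and 1.81 CPM in the same order. All 3 old conditioned libraries were low in both genes, and so were young conditioned 77 and old naive 71. For Kcnj13, old naive 71 (1.25 CPM) lay below old conditioned 65 (1.81 CPM).

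Choroid plexus markers moved with these 2 genes. The summed level of the 8 markers, led by Ttr, was 201 to 3192 CPM in young naive libraries and 64.4 to 2237 CPM after training at that age. It was 174 to 1885 CPM in old naive libraries and 73.2 to 166 CPM in old conditioned ones. Slc4a5 was at 0 in young conditioned 77, and the other 7 markers had counts in all 12 libraries. The lowest sums were those of young conditioned 77 and of old conditioned 61 and 63, and the highest those of young naive 81, young conditioned 75 and old naive 69. For training in old mice the log2 change of Kcne2 was -3.67 (SE 1.32, adjusted p = 0.695) and that of Kcnj13 -2.78, and with the mean log2 level of the choroid markers as a covariate they were -1.08 and -0.39. For age in conditioned mice they were -4.23 (SE 1.26, adjusted p = 0.232) and -3.48 (SE 1.08, adjusted p = 0.239), and -1.47 and -0.81 with the covariate. Without young conditioned 75, that of Kcnj13 was -1.94. For age over both conditions Kcnj13 had -2.33 (SE 0.672, adjusted p = 0.125) and Kcne2 -2.32 (SE 0.777, adjusted p = 0.17), and -0.64 and -0.59 with the covariate. Not every change shrank. For training in young mice Kcne2 had 0.14 and Kcnj13 -0.47, and 0.69 and -0.05 with the covariate. For age in naive mice they had -0.42 and -1.17, and 0.29 and -0.46 with the covariate. With that covariate, or with the score of nuclear-retained RNAs (summed level 7854 to 21197 CPM) in its place, no potassium channel gene passed the adjusted threshold in any of the 7 comparisons. For age over both conditions, 317 of all 14405 genes passed with the choroid covariate and 27 with the nuclear score, against 54 with neither.

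**Figure D3:**
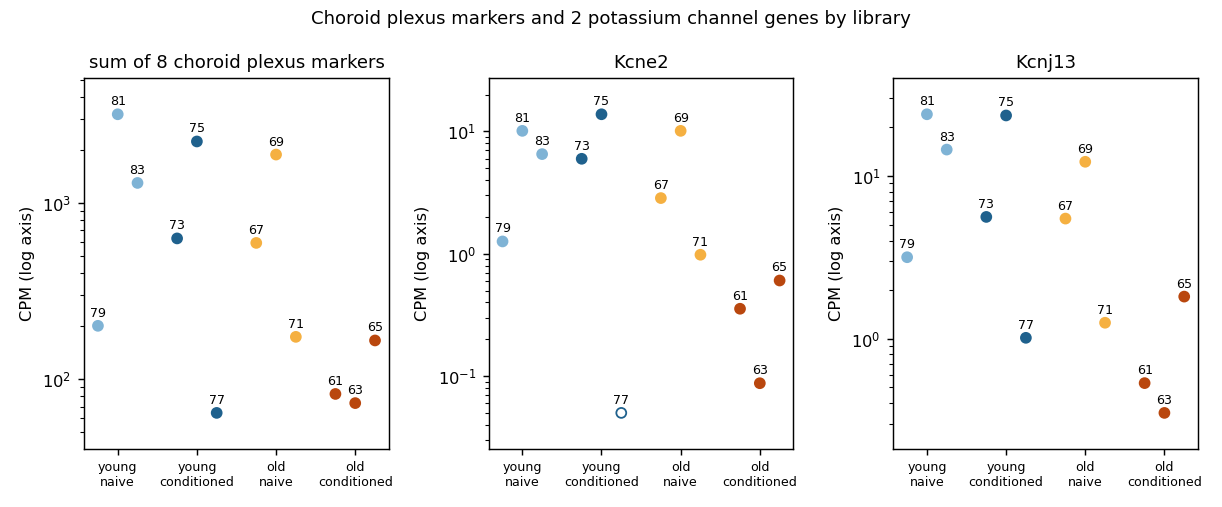
Summed CPM of 8 choroid plexus markers, CPM of Kcne2 and CPM of Kcnj13 (log axes) in each of the 12 libraries, numbered as in the labels and coloured by group; the open point is the library with 0 counts of Kcne2. Libraries 81, 75 and 69 are high in all 3 panels, and libraries 77, 61 and 63 are low.

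Proteins that bind or place potassium channels were read as a second list of 34 genes, of which 32 were tested. Of these 1 passed the adjusted threshold, in the comparison of age over both conditions. Akap9, a scaffold that anchors protein kinase A near Kv7 channels, fell with age, with a log2 change of -0.22 (SE 0.0442, adjusted p = 0.0485). Its 6 young libraries lay at 147 to 162 CPM and its old ones at 119 to 150 CPM, with 1 old naive library inside the young range. The call depended on single libraries, since it was kept in 5 of 18 alternatives (log2 change -0.24 to -0.19, adjusted p 0.00393 to 0.143). Of the 12 libraries, only young naive 81 could be left out without losing it, and adding the nuclear RNA score to the fit gave an adjusted p of 0.0997. Ank3, the ankyrin that holds Kv7 channels at the axon initial segment, had a log2 change of -0.11 in the same comparison (adjusted p = 0.184) and of -0.19 with training in old mice (adjusted p = 0.671). Cntn2, an adhesion protein that clusters Kv1 channels beside nodes of Ranvier, had -0.37 with training in young mice (adjusted p = 0.456), and Calm2, a calmodulin gene, 0.25 (adjusted p = 0.73). Between naive mice, Dpp10, an auxiliary protein of A-type channels, had -0.31 with age (adjusted p = 0.303) and Kctd12, an auxiliary subunit of GABA-B receptors, 0.25 (adjusted p = 0.332). Cntnap1, a partner of contactin at nodes, had 0.18 with age in conditioned mice (adjusted p = 0.236). Oligodendrocyte markers, which include the myelin genes of the same nodes, summed to 2495 to 3546 CPM in young naive and 2167 to 2929 CPM in young conditioned libraries, and their part in these values was not tested.

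H2A.Z was found at most potassium channel promoters. In the authors' deposited table, 71 peaks lay within 1000 bp of the start site of 66 of the 90 genes, out of 12204 such peaks for 11646 genes, and 24 genes had none. RNA was deep enough for a test in 60 of the 66 genes with a peak (90.9%) and in 13 of the 24 without (54.2%). Of all genes, 59.9% were tested. Their shares with and without a promoter peak were not counted, so this split is not shown to be particular to potassium channel genes. The tested genes without a peak were Kcnb2, Kcnd1, Kcne2, Kcng4, Kcnh6, Kcnip4, Kcnj13, Kcnj14, Kcnj16, Kcnj9, Kcnmb1, Kcnmb2 and Kcnu1. Both choroid plexus genes, Kcne2 and Kcnj13, thus had no promoter peak in this table. Depths of the immunoprecipitated libraries are not known from the table, which gives group values only.

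Histone marks at potassium channel promoters were read from the overlaps that the authors' deposited table lists for its peaks. H3K27me3, the mark set by Polycomb proteins at silenced and poised genes, overlapped 63 of the 71 peaks (88.7%), against 34.8% of all promoter peaks. H3K4me3, a mark of promoters ready for transcription, overlapped 59 (83.1%, against 93.8%), and H3K4me1 overlapped 70 (98.6%, against 86.7%). H3K27ac, a mark of active promoters and enhancers, overlapped 19 (26.8%, against 66.8%). Both H3K4me3 and H3K27me3 were present at 54 peaks (76.1%, against 31.8%), and H3K4me3 without H3K27me3 at 5 (7.04%, against 62%). These shares are counts over regions with no test, and the marks come from a tissue not given in the sources used here.

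**Figure D4:**
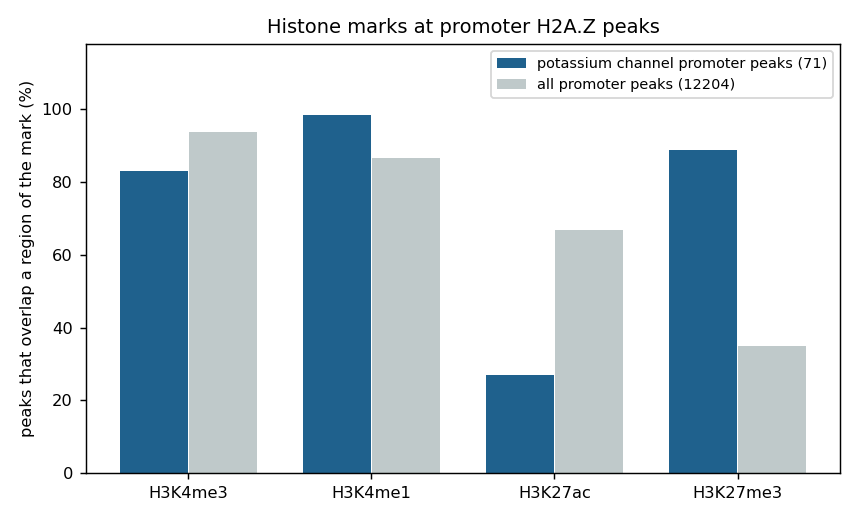
Percentage of promoter H2A.Z peaks that overlap a region of 4 histone marks in the authors' deposited table, for the 71 potassium channel promoter peaks (dark) and all 12204 promoter peaks (light). H3K27me3 reaches 88.7% against 34.8%, and H3K27ac 26.8% against 66.8%.

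The overlap with H3K27me3 was complete in some families. All 16 promoter peaks of voltage-gated pore subunits and all 6 of Kv7 genes carried it, as did 11 of 12 of two-pore domain genes, 7 of 9 of inward rectifiers and 6 of 8 of auxiliary subunits. The 8 peaks without it belonged to Kcnab2 (2 peaks), Kcng1, Kcnh2, Kcnj11, Kcnj2, Kcnk7 and Kcnn1. Among peaks with H3K27me3 were those of genes with many RNA counts in every library, such as Kcna1, Kcna2 and Kcnma1. The promoter of Kcna1 had H3K27me3 without H3K4me3. Kcnab2, whose RNA took the most counts of any potassium channel gene, had H3K4me3 and H3K27ac at its stronger peak and no H3K27me3.

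Promoter sequences were read next from RefSeq (build GRCm38.p6, the mm10 build of the peaks). The table held 250 bases before the start site for 66 of the 90 genes. CpG-rich windows were those with over 50% G and C and a CpG content above 0.6 of that expected from base composition. Each gene gave 1 window. With a promoter peak it was the one nearest to the start site of the strongest peak, and otherwise the most upstream one. CpG-rich windows were 24 of 48 for genes with a promoter peak (50%) and 1 of 18 for genes without one (5.56%). Of the 48 windows, 44 overlapped the gene's promoter peak, and 24 of these were CpG-rich (54.5%). Of all 32851 promoters in the table, which can hold several per gene, 10109 were CpG-rich (30.8%). The motif TGACGTCA, a full cAMP response element, was in none of the 66 windows, against 1.55% of all promoters. The motif TGAGTCA, an AP-1 site, was searched on both strands like the first and was in none of the 66, against 4.46% of all promoters. Neither motif contains the other. A window without a match says only that these letters are not in it.

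Shown here are the windows of genes whose H2A.Z changed with training in the authors' deposited table, followed by those of the 2 choroid plexus genes without a peak. CpG dinucleotides are in capitals, and each sequence runs 5′ to 3′ on the strand of the gene. The first 4 belong to Kcnn1 (chr8:70857009-70857258, minus strand), Kcnh5 (chr12:75177333-75177582, minus strand), Kcnc2 (chr10:112270871-112271120, plus strand) and Kcnj2 (chr11:111065914-111066163, plus strand), the genes called in young mice. The Kcnc2 window overlaps its called peak, chr10:112270075-112270889, only at the 5′ end, so most of this sequence lies outside that peak.
Kcnn1: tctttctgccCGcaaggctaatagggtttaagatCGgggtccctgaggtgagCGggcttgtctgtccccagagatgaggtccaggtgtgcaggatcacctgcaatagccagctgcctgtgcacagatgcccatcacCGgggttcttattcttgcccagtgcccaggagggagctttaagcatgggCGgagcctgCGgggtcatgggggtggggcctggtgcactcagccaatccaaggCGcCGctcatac
Kcnh5: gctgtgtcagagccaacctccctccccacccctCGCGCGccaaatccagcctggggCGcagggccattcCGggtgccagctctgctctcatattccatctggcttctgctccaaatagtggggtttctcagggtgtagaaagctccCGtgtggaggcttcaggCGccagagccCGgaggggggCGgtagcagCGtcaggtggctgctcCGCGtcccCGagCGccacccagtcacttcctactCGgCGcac
Kcnc2: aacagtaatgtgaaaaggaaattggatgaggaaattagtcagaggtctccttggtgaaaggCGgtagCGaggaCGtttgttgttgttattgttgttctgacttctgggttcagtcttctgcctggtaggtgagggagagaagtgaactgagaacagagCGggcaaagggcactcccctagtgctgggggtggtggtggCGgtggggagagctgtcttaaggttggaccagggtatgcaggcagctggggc
Kcnj2: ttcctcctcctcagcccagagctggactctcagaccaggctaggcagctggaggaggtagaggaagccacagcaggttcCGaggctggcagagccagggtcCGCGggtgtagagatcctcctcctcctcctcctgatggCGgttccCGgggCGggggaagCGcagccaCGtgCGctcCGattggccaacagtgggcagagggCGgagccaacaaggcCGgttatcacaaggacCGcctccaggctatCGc
These windows held 8, 16, 5 and 14 CpG dinucleotides, at 0.35, 0.60, 0.36 and 0.52 of the expected number, so none of the 4 was CpG-rich by the rule above, and Kcnh5 lay at its edge.

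Among the genes called in old mice, Kcnk12 (chr17:87797995-87798244, minus strand) and Kcnq5 (chr1:21961943-21962192, minus strand) are shown because their peaks had the smallest FDR there.
Kcnk12: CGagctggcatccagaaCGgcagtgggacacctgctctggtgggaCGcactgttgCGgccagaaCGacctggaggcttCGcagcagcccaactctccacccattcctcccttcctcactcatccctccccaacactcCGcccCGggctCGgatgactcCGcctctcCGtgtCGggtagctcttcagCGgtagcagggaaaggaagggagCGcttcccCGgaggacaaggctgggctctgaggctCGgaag
Kcnq5: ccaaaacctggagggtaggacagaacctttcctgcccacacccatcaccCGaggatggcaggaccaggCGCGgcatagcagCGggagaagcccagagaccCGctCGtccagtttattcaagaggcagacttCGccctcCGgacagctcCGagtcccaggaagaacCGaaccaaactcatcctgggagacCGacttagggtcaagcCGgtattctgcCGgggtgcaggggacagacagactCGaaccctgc
Both were just over the limit for a CpG-rich window, with 16 and 14 CpG dinucleotides at 0.61 of the expected number. The windows of Kcne2 (chr16:92292139-92292388, plus strand) and Kcnj13 (chr1:87394730-87394979, minus strand) belong to genes without a promoter peak. Their overlap with peaks of other genes was not checked.
Kcne2: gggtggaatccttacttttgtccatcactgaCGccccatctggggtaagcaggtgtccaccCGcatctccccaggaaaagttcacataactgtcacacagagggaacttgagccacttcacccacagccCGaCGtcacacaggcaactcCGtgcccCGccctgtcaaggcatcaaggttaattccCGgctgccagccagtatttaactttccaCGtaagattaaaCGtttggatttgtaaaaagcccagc
Kcnj13: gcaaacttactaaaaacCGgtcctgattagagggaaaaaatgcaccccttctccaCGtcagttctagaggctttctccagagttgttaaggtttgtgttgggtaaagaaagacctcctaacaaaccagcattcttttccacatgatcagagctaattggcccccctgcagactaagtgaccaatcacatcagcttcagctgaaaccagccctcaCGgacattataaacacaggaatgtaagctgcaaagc
They held 9 and 3 CpG dinucleotides, at 0.54 and 0.24 of the expected number, and the one of Kcnj13 had 45.2% G and C.

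Most H2A.Z folds with training at potassium channel promoters were below 0 at both ages, as was the median of all promoter peaks. In young mice the authors' deposited table gives a fold below 0 (log2, conditioned minus naive) for 60 of the 71 peaks (84.5%), against 91.8% of all promoter peaks. The median was -0.58, against -0.63 over all promoter peaks. Past an FDR of 0.05, H2A.Z fell at 4 of the 71 peaks (5.63%) and rose at 0, against a fall at 14.5% of all promoter peaks. At an unadjusted p under 0.05 it was lower at 19 peaks, against 30.2% of all promoter peaks. Among peaks with both H3K4me3 and H3K27me3, H2A.Z fell at 2 of 54 potassium channel peaks (3.7%) and at 8.3% of all promoter peaks. No test of the difference between the shares was made, since peaks are not replicates.

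The 4 peaks that fell in young mice belong to different families. In the authors' deposited table the peak of Kcnn1, a small-conductance calcium-activated subunit, had a log2 fold of -1.85 (FDR 0.00373) at chr8:70856480-70857399, in the 5′ UTR. Kcnh5, an EAG channel gene, had -1.53 (FDR 0.00428) at chr12:75176425-75177926, which the table annotates as exonic. The peak upstream of Kcnc2, at chr10:112270075-112270889, had -1.36 (FDR 0.0418), while the other Kcnc2 peak of the table, at chr10:112271708-112272328 in an exon, had -0.15 (FDR 0.893). Kcnj2 had -1.35 (FDR 0.0437) at chr11:111065607-111066540, in the 5′ UTR. In old mice the same 4 peaks had folds of -2.04, -1.56, -1.06 and -2.15 in the authors' deposited table, with FDRs of 0.12, 0.127, 0.295 and 0.0582.

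In old mice the authors' deposited table gives a fold below 0 for 67 of the 71 peaks (94.4%), against 98.3% of all promoter peaks. The median was -0.83, against -1.03 over all promoter peaks. Past an FDR of 0.05, H2A.Z fell at 6 peaks (8.45%) and rose at 0, against a fall at 15.9% of all promoter peaks. At an unadjusted p under 0.05 it was lower at 22 peaks, against 42.5% of all promoter peaks. All 6 called peaks carried both H3K4me3 and H3K27me3, as did 54 of the 71 peaks. Of the 4 peaks called in young mice, 2 carried both marks, and those of Kcnn1 and Kcnj2 had H3K4me3 without H3K27me3. On the scale of the deposited levels, which differs from that of the folds by a constant, the medians in old mice were -1.04 for potassium channels and -1.24 for all promoter peaks.

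The 6 called peaks lay at genes with varied roles. In the authors' deposited table Kcnq5, an M-current subunit, had a log2 fold of -1.38 (FDR 0.0116) at chr1:21960378-21962461, and Kcnk12, a two-pore subunit that stays largely silent alone, had -1.21 (FDR 0.0144) at chr17:87796832-87799059. The silent subunits Kcng3 (chr17:83630727-83632800) and Kcns3 (chr12:11149291-11150745) had -1.04 (FDR 0.0238) and -1.56 (FDR 0.0274). Kcna3, a Kv1 pore subunit also used by microglia and lymphocytes, had -1.11 (FDR 0.0305) at chr3:107035715-107037192. Kcnj12 had -1.23 (FDR 0.0343) at chr11:61021914-61023611. The table annotates the peaks of Kcns3 and Kcnj12 as 5′ UTR and the other 4 as exonic. In young mice these 6 peaks had folds of -0.62, -0.91, -0.39, -0.99, -0.93 and -0.68 in the authors' deposited table, with FDRs from 0.0969 to 0.582. No peak was called at both ages. An effect past the threshold at 1 age only is not shown to differ between ages, and the table holds no test of that difference.

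**Figure D5:**
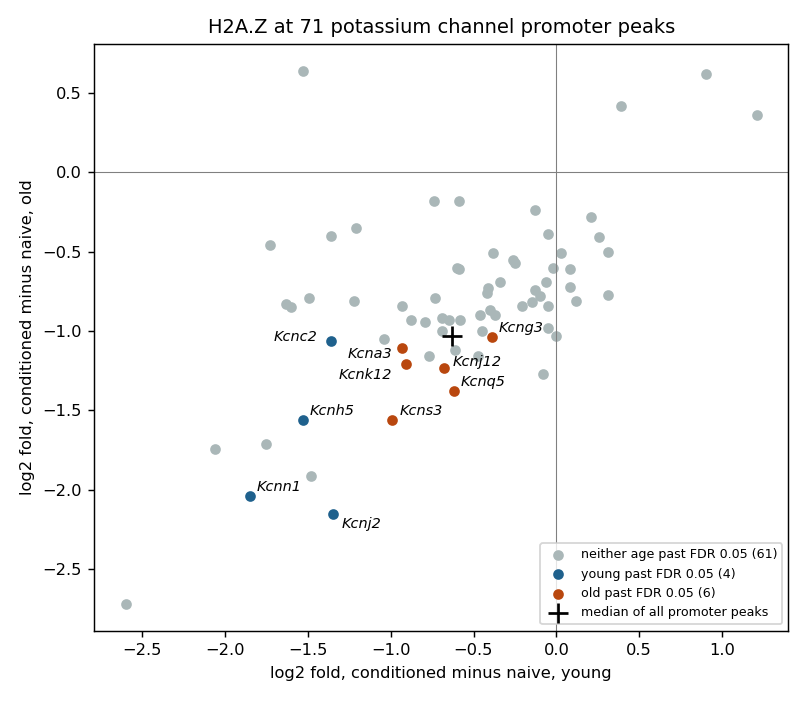
Log2 fold of H2A.Z (conditioned minus naive) in young mice (horizontal) and old mice (vertical) at the 71 potassium channel promoter peaks of the authors' deposited table, coloured by the age at which the peak is past FDR 0.05; the cross is the median of all promoter peaks. Most points lie below 0 on both axes, and 4 peaks are past the threshold in young and 6 in old mice.

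Folds with training ran over a wide range. The lowest of the authors' deposited table in either age were those of Kcnk10, a mechanosensitive two-pore channel, with -2.60 in young (FDR 0.0561) and -2.72 in old mice (FDR 0.186). The Kcnk10 peak was called in 2 libraries of each naive group, in 0 young conditioned libraries and in 1 old conditioned library. In young mice the next lowest were Kcnab1 (-2.06) and Kcnn1. In old mice they were Kcnj2 and Kcnn1. Folds above 0 included those of Kcng1 (1.21) and Kcnk7 (0.39) in young mice, and of the weaker peak of Kcnab2 (0.64) and Kcnk7 (0.42) in old mice. None of these folds above 0 had an FDR under 0.2. The peaks of Kcng1, Kcnk7 and the weaker one of Kcnab2 were those with neither H3K4me3 nor H3K27me3. Those of Kcng1 and Kcnk7 were called in 0 young naive libraries.

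By family, the median fold in young mice was -1.35 over the 9 peaks of inward rectifiers and -0.97 over the 8 of auxiliary subunits, against -0.28 over the 16 of voltage-gated pore subunits and -0.17 over the 6 of Kv7 genes. In old mice the same families had medians of -0.74, -0.48, -0.81 and -0.67. The order of these medians was not the same at both ages. They are medians over the authors' deposited folds, with no test.

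Single genes of the neuronal families lay on both sides of 0 in young mice. In the authors' deposited table Kcna1 (-1.22), Kcna4 (-1.60), Kcna2 (-0.65) and Kcnd2 (-0.93) had folds below 0 with training, while Kcnc1 (0.08) and Kcnd3 (0.08) were slightly above 0. In old mice all 6 were below 0, between -0.93 for Kcna2 and -0.61 for Kcnd3. Kcnj10 had -1.63 in young and -0.83 in old mice, Kcnj8 -1.36 and -0.40, Kcnma1 -0.10 and -0.78 and Kcnmb4 -0.88 and -0.93. None of these folds was past the authors' FDR of 0.05.

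No potassium channel promoter peak passed the threshold for age. In naive mice the authors' deposited table has 0 of 71 peaks past FDR 0.05, against 0% of all promoter peaks, with a median log2 fold (old minus young) of 0.44 for potassium channels and 0.44 for all. On the scale of the deposited levels these medians were 0.78 and 0.77, and which scale the sizes of the age differences should be read on is not known from the table. H2A.Z was higher in old naive mice, at an unadjusted p under 0.05, at 11 of the 71 peaks, against 17.2% of all promoter peaks, and lower at 0. The highest fold was that of Kcnj11 (1.47), and the lowest were those of Kcnh8 (-0.88), Kcnk10 (-0.39) and Kcnk5 (-0.23). The Kcnj11 peak was called in 0 young naive and 3 old naive libraries. In conditioned mice the table has 0 of 71 peaks past FDR 0.05, against 0% of all, and 0 at an unadjusted p under 0.05, against 0.402% higher in all promoter peaks. The median was 0.10 for both, and 0.22 for both on the scale of the levels. The weaker Kcnab2 peak (2.32), Kcna4 (1.35) and the Kcnj3 peak inside the gene (1.15) were highest, and Kcnj2 (-0.73), Kcnip3 (-0.71) and Kcnf1 (-0.55) lowest. The weaker Kcnab2 peak and that Kcnj3 peak were each called in 0 young conditioned and 2 old conditioned libraries. The 4 folds share groups with one another, and each is given as deposited.

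H2A.Z and RNA levels were set beside each other across the 60 genes with both a promoter peak and a tested RNA level, using the strongest peak of a gene. Spearman's rho between the authors' deposited H2A.Z level and mean RNA level was 0.24 and 0.15 in old conditioned and old naive mice, and 0.20 and 0.13 in young conditioned and young naive ones. Between the H2A.Z fold and the RNA change it was 0.16 for training in young and 0.02 in old mice, and 0.01 for the age difference of naive and -0.01 for that of conditioned mice. These are descriptions across genes, which share libraries, differ in transcript length and are not independent replicates. For the genes called by H2A.Z in young mice, RNA lay at 13.5, 15.0 and 15.7 CPM in naive and 13.7, 13.6 and 11.9 CPM in conditioned mice for Kcnn1. Kcnh5 had 20.7, 22.3 and 21.9 CPM in naive and 16.3, 21.1 and 21.3 CPM in conditioned mice. Kcnj2 had 21.7, 25.9 and 24.6 CPM in naive and 15.1, 24.2 and 24.7 CPM in conditioned mice. In these 3 genes the groups overlapped. Kcnc2 had 168, 163 and 169 CPM in naive and 176, 174 and 182 CPM in conditioned mice, so its conditioned libraries were all higher (log2 change 0.09, SE 0.0610, adjusted p = 0.805 in edgeR), while H2A.Z at its upstream peak was lower by the authors' FDR.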

How the data were processed

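Members, families and lists were chosen with earlier results of these data known. RNA values are whole-number read counts per gene symbol, 1 file per library, as the authors deposited them. H2A.Z values come from 1 peak table on mm10 that the authors deposited, with log2 folds and log2 levels of groups. Its p-values and FDRs were computed by the authors. Further columns that the authors deposited give the libraries in which a peak was called, distances and mark overlaps. Per the submitters' processing notes, reads were handled with Trim Galore 0.4 and cutadapt, and HTSeq 0.6.1p2, Bowtie2 2.2.1, MACS2 2.0.10 and DiffBind 1.12.2 were among the tools. The builds mm9 and mm10 are named, with their use, the H2A.Z scaling and the strand setting not given in the sources used here.

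Counts were fitted in R 4.3.3 with edgeR 4.0.16 (TMM factors, filterByExpr, 1 quasi-likelihood fit of 4 groups of 3 libraries), with Benjamini-Hochberg adjustment over all 14405 tested genes at 0.05. SEs were derived from the F statistic. The fit was tested on simulated counts. DESeq2 1.42.0, upper-quartile factors, no filter, the compared groups alone, choroid plexus and nuclear RNA scores as covariates, and leaving out libraries were the alternatives. For Akap9 they were run after seeing the data. Members take 73 of the tested genes. A floor of 3 counts was used for counts of 0, and intervals cover counting error only where they are floors.

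H2A.Z values were described as deposited, with each fold given for conditioned relative to naive mice, or for old relative to young ones. The letter T in group names was taken to mean conditioned, by exclusion. Where old groups are involved, the difference between deposited levels minus the fold is a constant (-0.215 for training in old mice, and 0.334 and 0.118 for age in naive mice and in conditioned ones). Medians of folds that involve old mice depend on that scale, so median differences of levels between groups are given beside them. Correlations of H2A.Z level with RNA level used 1 group at a time. Python 3.11.15 with pandas 2.3.3 and scipy 1.17.1 was used. Input libraries (12) were not analysed here.

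Genes named were, per RNA comparison, any with adjusted p under 0.05 and the 5 with the smallest p, the 3 with the most counts per family, and a list of 27 well-known genes. Peaks named were those past FDR 0.05, the 3 highest and 3 lowest folds per comparison, and peaks of the genes above. Partner genes named were those past the threshold and the 2 with the smallest p per comparison. Genes used as further examples of families or marks were chosen after their values were seen, and tested genes without a peak were listed for that reason. Single values of some genes that these rules name are not reported here.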

Additional observations from a re-analysis of the deposited data

How the results depend on the processing

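The number of potassium channel genes past the adjusted threshold was 0 in 127 of 130 alternatives over the 7 RNA comparisons. The 3 exceptions all lay in age over both conditions: 1 gene with DESeq2 (Kcnab2), 1 without a filter on low counts (Kcnj13, adjusted p = 0.0278) and 3 without young naive 81, so leaving out 1 library gave 0 to 3. The shares of all genes called were 1.64%, 0.984% and 2.69% there, against 0.375%. The cause was not tested. Of 35 named log2 changes under 649 alternatives, 0 reversed, and leaving out 1 library moved 10 of the 35 by over 1.5 times. The 35 were picked for small p in the same data and the alternatives share most libraries, so reversals were unlikely beforehand. Another scaling moved the median of all genes by at most 0.021. At FDR 0.01 the called H2A.Z peaks were 2 in young and 0 in old mice, by the stricter threshold itself; a window of 500 bp gave 3 and 5. With the peak nearest to the start site, Spearman's rho of H2A.Z level and RNA level was 0.18 and 0.09 in old conditioned and old naive mice, and 0.15 and 0.06 in young conditioned and young naive ones; the cause was not tested. No paired analysis was possible because no number is shared between RNA libraries and the H2A.Z table holds no values per library. The partner gene Akap9 lost its call with age in 13 of 18 alternatives, chosen after seeing the data. The 3 libraries per group limit the precision of all RNA changes.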
